A study of Mus musculus with 18 samples.

Results

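The response of the colon to azoxymethane and dextran sulfate sodium (AOM/DSS) was compared between WT mice and *Cldn2*KO mice, which lack claudin-2. AOM is a carcinogen and DSS a sulfated polysaccharide that damages the lining of the colon, and given together they are used as a model of colitis-associated cancer. The comparison used 12 of the 18 RNA-seq libraries of the series, 3 from each of 4 groups, which were WT control, WT AOM/DSS, *Cldn2*KO control and *Cldn2*KO AOM/DSS. All mice were on the C57BL/6 background. The treatment protocol in the labels is one dose of 10 mg/kg AOM followed by 3 cycles of 2.5% DSS. It is attached to every sample of the series, and the untreated libraries are told apart by their Control label. The study's methods describe littermates matched for age and sex, the labels give neither, and the AOM/DSS libraries were not matched for sex by their *Xist* levels. The 6 libraries taken after recovery from DSS were not used in this comparison.

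For each gene, the response of a genotype was the log2 fold change of its AOM/DSS mice over its controls. The interaction was the *Cldn2*KO response minus the WT response, so that a positive value means a response that was more upward, or less downward, in *Cldn2*KO mice. Levels are given as counts per M reads (CPM) after scaling, always in the order of replicates 1, 2 and 3 of a group. The labels number the controls, while the AOM/DSS libraries carry no replicate number and were numbered here in accession order. Nothing in the labels says which AOM/DSS libraries belong with which controls.

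Claudin-2 forms pores for cations and water in the paracellular seal of leaky epithelia and lies in the crypts of the colon. Interferons act through JAK kinases and the STAT transcription factors, which with IRF9 and IRF1 switch on antiviral proteins, GTPases that attack intracellular microbes, and the machinery that displays peptides on MHC molecules. MHC class I carries peptides made by the immunoproteasome and brought in by the TAP transporter. MHC class II is loaded with the help of the invariant chain CD74 and needs the activator CIITA, and it is made by antigen-presenting cells and also by the intestinal epithelium under interferon-gamma. The lists of such genes used here were written with earlier results of these data known.

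Several libraries stood apart from the rest of their group. WT control replicate 2 had 0.283 CPM of *Hoxb13*, a gene of the distal colon, where the other 11 libraries had 234 to 596 CPM before scaling, and its 11 proximal colon markers summed to 11642 CPM, against 240 to 1276 CPM in the others. It also had the highest sum of T and NK cell markers (211 CPM). *Xist* stood at 1811 and 1855 CPM in *Cldn2*KO AOM/DSS replicates 3 and 2 and reached no more than 1.21 CPM in the other 10, so by this transcript, which is made from the inactive X chromosome of female cells, the genotypes were not matched for sex within AOM/DSS. WT AOM/DSS replicate 3 lay farthest out on the first principal component and held the highest *Il1b* level, and *Cldn2*KO control replicate 3 held B cell transcripts. Depth ran from 17.6 to 27.4 M reads over the 12 libraries, with 21596 to 23623 genes detected in each.

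*Cldn2* (ENSMUSG00000047230, chrX:139800828-139811386, plus strand, protein coding, GRCm38) checked the genotype labels. It stood at 137, 45.9 and 132 CPM in WT controls, at 217, 132 and 145 in WT AOM/DSS mice, at 0.209, 0.0592 and 0.171 in *Cldn2*KO controls and at 0.56, 0.172 and 0.147 in *Cldn2*KO AOM/DSS mice. The genotypes did not overlap in either treatment, with log2 differences of -9.41 in controls (edgeR adjusted p 0.000387) and -9.22 in AOM/DSS (edgeR adjusted p 0.000234). Its own interaction was 0.19 (SE 0.91), a comparison that in *Cldn2*KO mice rests on levels below 1 CPM.

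In the test over all genes, no interaction passed an edgeR adjusted p of 0.05. Of 16488 genes tested, 0 were called (0.0%), the smallest adjusted p was 0.074, and 1568 genes had an unadjusted p under 0.05 where 824 is 5% of those tested. Of these, 795 had a positive interaction (4.82% of genes tested) and 773 a negative one (4.69%). DESeq2 called 118 genes, 101 of them higher (0.613%) and 17 lower (0.103%), and limma-voom with sample weights called 200, 160 higher (0.97%) and 40 lower (0.243%). The same 78 genes were called by both tools, which is 66.1% of the DESeq2 calls and 39% of the limma-voom calls. Immunoglobulin gene segments made up 15 of the DESeq2 and 18 of the limma-voom calls, among them *Ighv5-16* (DESeq2 log2 10.17, adjusted p 5.07e-05). Their share among all genes tested was not counted, so these counts cannot be read as an excess. The genes described here are thus differences between genotypes that the main test did not call.

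The arms of the interaction were unequal in what they called. In WT mice 869 genes passed (5.27%), 349 higher (2.12%) and 520 lower (3.15%) in AOM/DSS, and in *Cldn2*KO mice 4 passed (0.0243%). Those were *Ddah1*, which was higher, and *Lars2*, *Tob1* and *Gm15564*, which were lower. The order of the counts turned with limma-voom, which called 2074 genes in WT and 2468 in *Cldn2*KO. It also turned without WT AOM/DSS replicate 3 alone, with 94 and 134, and without that library and WT control replicate 2 together, with 434 and 1272. The counts also moved with single libraries. The WT count was 47, 369 and 524 without WT control replicates 1, 2 and 3, 94 without WT AOM/DSS replicate 3, 148, 266 and 401 without *Cldn2*KO control replicates 1, 2 and 3, and 347 without *Cldn2*KO AOM/DSS replicate 3. In the *Cldn2*KO arm 204 genes passed once WT control replicate 2 was left out, 22 and 134 without WT AOM/DSS replicates 1 and 3, 0 without *Cldn2*KO control replicate 3, and 11, 24 and 0 without *Cldn2*KO AOM/DSS replicates 1, 2 and 3. Across the 16488 genes the responses had Pearson's r of 0.646 and Spearman's rho of 0.537, and the arms share no library. Of the 869 genes called in WT, 782 (90.0%) had the same sign in *Cldn2*KO, where 68.0% of all genes did. Genes are not independent replicates, so these values are descriptions.

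**Figure D1:**
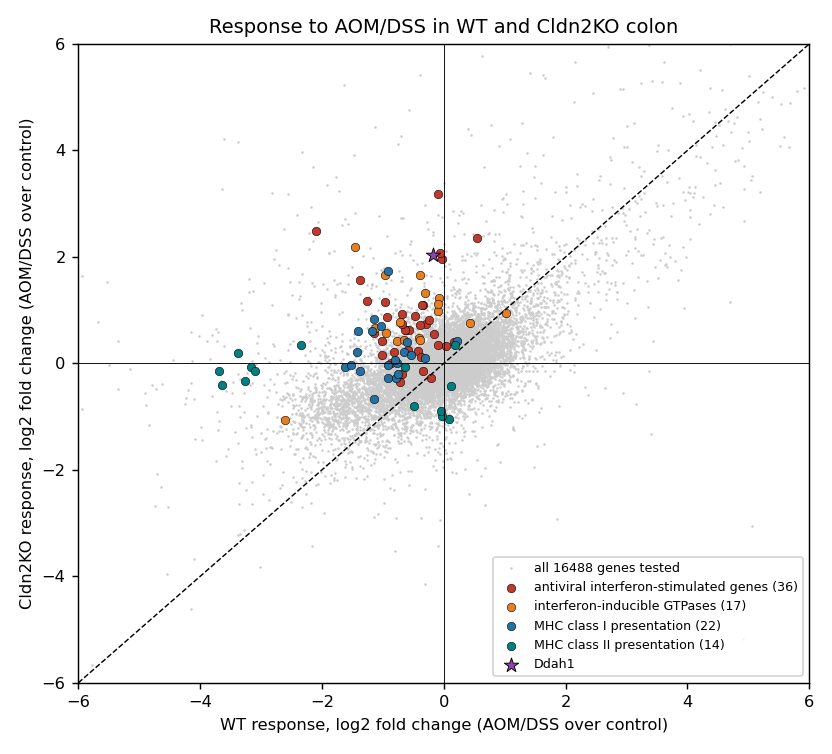
WT response (x axis) against *Cldn2*KO response (y axis), both as log2 fold change of AOM/DSS over control, for the genes tested. Points above the dashed line of equal response have a positive interaction, as do 35 of 36 antiviral genes, 16 of 17 interferon-inducible GTPases and 22 of 22 MHC class I genes. 70 genes lie outside the plotted range.

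Before treatment the genotypes already differed, and the interaction has to be read beside that difference. In controls 111 genes passed (0.673%), 97 of them lower in *Cldn2*KO, and in AOM/DSS only *Cldn2* passed (0.00607%). The 96 other genes called lower in *Cldn2*KO controls had a median log2 difference of -2.26 in controls and -0.42 in AOM/DSS. Their median response was -0.76 in WT mice and 0.84 in *Cldn2*KO mice, and 95 of the 96 had a smaller difference in AOM/DSS than in controls. These contrasts share libraries, so the narrowing is partly built into the selection and is a description only. The count of 111 was 29, 190 and 23 without WT control replicates 1, 2 and 3, and 2 and 14 without *Cldn2*KO control replicates 1 and 2. It was 219 without WT AOM/DSS replicate 3, and 63, 73 and 72 without *Cldn2*KO AOM/DSS replicates 1, 2 and 3. The count in AOM/DSS was 8 without *Cldn2*KO AOM/DSS replicate 1.

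*Ddah1* (ENSMUSG00000028194, chr3:145758675-145894277, plus strand, protein coding) had the smallest p among genes with a common symbol and a mean of at least 1 CPM, antigen receptor segments left aside. Over all genes tested it ranked 2 by p. It encodes an enzyme that breaks down asymmetric dimethylarginine, an inhibitor of the nitric oxide synthases. *Ddah1* stood at 74.4, 54.4 and 75.7 CPM in WT controls, at 53.6, 63.8 and 63.2 in WT AOM/DSS mice, at 16.8, 10.8 and 15.8 in *Cldn2*KO controls and at 67.9, 46.8 and 62.6 in *Cldn2*KO AOM/DSS mice. All 3 *Cldn2*KO controls lay below the other 9 libraries, which overlapped one another. Its level rose in *Cldn2*KO mice by 2.03 on the log2 scale (SE 0.21, edgeR adjusted p 0.00762), against -0.18 in WT (SE 0.20, edgeR adjusted p 0.574). The interaction was 2.21 (SE 0.29, p 8.97e-06, edgeR adjusted p 0.074). Among the fits that left out 1 library, it passed only without WT control replicate 2 (edgeR adjusted p 0.0185). On the same 12 libraries it passed with DESeq2 (adjusted p 6.59e-09) and limma-voom (adjusted p 0.00354).

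The other 9 genes at the top of the positive side were *Dcxr*, *Uba7*, *H2-Q10*, *Mfn2*, *Spire2*, *Pnpla7*, *Mov10*, *Apol10a* and *Mlkl*, with interactions from 0.95 to 4.53 and edgeR adjusted p from 0.231 to 0.400. edgeR called none of them, and DESeq2 and limma-voom each called all 9 (0.613% and 0.97% of all genes on the positive side). Those tools used the same libraries in which edgeR picked the genes, so their calls are not independent support. *Uba7*, the activating enzyme for the ubiquitin-like protein ISG15, stood at 94.4, 112 and 91.2 CPM in WT controls, at 62.6, 51 and 60.9 in WT AOM/DSS mice, at 40.9, 40.6 and 51.3 in *Cldn2*KO controls and at 63.6, 56.7 and 54.9 in *Cldn2*KO AOM/DSS mice. Its WT response fell by 0.77 on the log2 scale (edgeR adjusted p 0.0243) and its *Cldn2*KO response was 0.40 (edgeR adjusted p 0.222). *H2-Q10*, a non-classical MHC class I gene, stood at 15.6, 15.1 and 17.3 CPM in WT controls, at 6.5, 4.3 and 7.31 in WT AOM/DSS mice, at 3.6, 2.78 and 4.66 in *Cldn2*KO controls and at 5.14, 5.63 and 6.1 in *Cldn2*KO AOM/DSS mice. WT controls were above every other library in both genes.

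*Mov10*, an antiviral RNA helicase, stood at 68.7, 95.9 and 42.2 CPM in WT controls, at 22.2, 26 and 25.8 in WT AOM/DSS mice, at 17.6, 17.7 and 20.8 in *Cldn2*KO controls and at 27.4, 21.4 and 29.7 in *Cldn2*KO AOM/DSS mice. In WT mice it fell by 1.48 on the log2 scale (edgeR adjusted p 0.0221), and its *Cldn2*KO response was 0.48 and was not called. *Apol10a*, of the apolipoprotein L family, stood at 80.8, 381 and 81.1 CPM in WT controls, at 18.2, 8 and 7.16 in WT AOM/DSS mice, at 2.24, 2.43 and 4.38 in *Cldn2*KO controls and at 4.23, 4.47 and 4.15 in *Cldn2*KO AOM/DSS mice. It fell by 4.02 in WT mice (edgeR adjusted p 0.0205), and its *Cldn2*KO response of 0.51 was not called. *Mfn2*, which fuses mitochondrial outer membranes, stood at 149, 131 and 126 CPM in WT controls, at 80.5, 80.9 and 69.1 in WT AOM/DSS mice, at 94.9, 94.7 and 82.9 in *Cldn2*KO controls and at 96.1, 94.3 and 107 in *Cldn2*KO AOM/DSS mice and also fell in WT (log2 -0.82, edgeR adjusted p 0.0146). *Mlkl*, the executor of necroptosis, stood at 49.7, 44.3 and 47.6 CPM in WT controls, at 35.2, 28.2 and 38 in WT AOM/DSS mice, at 21.7, 15.7 and 21.4 in *Cldn2*KO controls and at 30.4, 28.8 and 30.3 in *Cldn2*KO AOM/DSS mice and had an interaction of 1.08 (SE 0.21). In all 10 genes the *Cldn2*KO controls were below the WT controls without overlap, as in 9.7% of all genes. In AOM/DSS the genotypes overlapped in 6, were higher in *Cldn2*KO in 3 (5.07% of all genes) and lower in 1 (6.24% of all genes). Since the genes were chosen by the interaction, this arrangement is a description of how it arose and not a test.

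**Figure D2:**
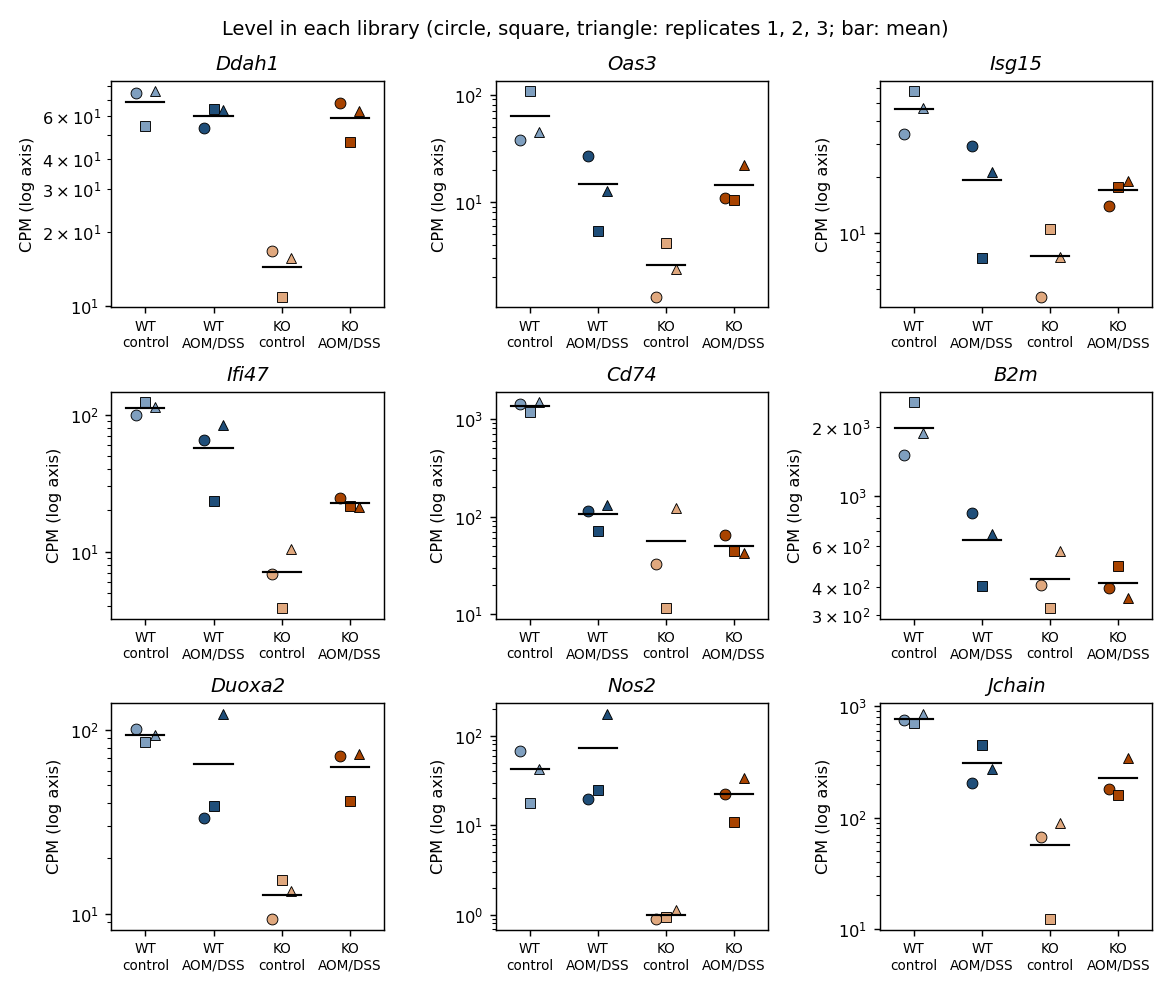
Level of 9 genes in each of the 12 libraries, as CPM on a log axis, with symbols for replicates 1 to 3 and a bar at the group mean. *Cldn2*KO controls have the lowest mean for *Ddah1*, *Oas3*, *Isg15*, *Ifi47*, *Duoxa2*, *Nos2* and *Jchain*, and for *Cd74* and *B2m* the WT controls lie above all other libraries.

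The promoters of some interferon-inducible genes are shown because members of these lists shared the direction of their interaction. Each line gives the 150 bases before the transcription start, from RefSeq (GRCm38.p6), 5′ to 3′ on the gene's strand, with capitals on matches to GAAANNGAAA, a pattern like the interferon-stimulated response element. *Ddah1*, with no match, is added for comparison.
Oas3 (chr5:120777660-120777809, minus strand): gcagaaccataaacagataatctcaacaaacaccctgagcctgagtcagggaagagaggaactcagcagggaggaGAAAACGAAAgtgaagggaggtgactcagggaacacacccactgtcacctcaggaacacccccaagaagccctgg
Isg15 (chr4:156200819-156200968, minus strand): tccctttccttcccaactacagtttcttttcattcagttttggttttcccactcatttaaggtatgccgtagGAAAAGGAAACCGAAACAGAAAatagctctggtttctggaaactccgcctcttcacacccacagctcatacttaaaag
Irgm1 (chr11:48871421-48871570, minus strand): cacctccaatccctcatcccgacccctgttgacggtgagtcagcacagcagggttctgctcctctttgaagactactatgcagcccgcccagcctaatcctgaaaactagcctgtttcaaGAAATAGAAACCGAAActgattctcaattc
Ddah1 (chr3:145758542-145758691, plus strand): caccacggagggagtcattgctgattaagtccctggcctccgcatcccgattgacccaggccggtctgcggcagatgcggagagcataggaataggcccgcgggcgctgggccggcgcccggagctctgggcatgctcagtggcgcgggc

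In these windows *Oas3* held 1 match, *Isg15* a run of 3 that overlap and *Irgm1* a run of 2 that overlap. Over 250 bases before the start and on both strands, 10 of the 11 GTPase promoters in the table held the pattern, as did 11 of 24 antiviral, 3 of 19 MHC class I and 1 of 11 MHC class II promoters. Among all 27025 promoters 3.46% held it. The pattern TTCNNNGAA, like the gamma-activated site, was met in 6 of the 11 GTPase promoters, 4 of 24 antiviral, 2 of 19 MHC class I, 1 of 11 MHC class II and 8.13% of all promoters. It was also met in 5 of 24 promoters of TNF and NF-kB genes and in 3 of 15 of tight junction genes. Matches are letters in a window and were not tested for binding, and the GTPases include close paralogs that can share promoter sequence.

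Antiviral genes had positive interactions in 35 of 36 tested members, and 0 were called by edgeR. The median interaction was 1.23 over the list against -0.0042 over all genes tested, and 21 members had an unadjusted p under 0.05 on the positive side (4.82% of all genes did) and 0 on the negative side. DESeq2 called 8 of them (0.613% of all genes) and limma-voom 13 (0.97%). Their median response was -0.52 in WT and 0.63 in *Cldn2*KO. In controls 30 of the 36 had *Cldn2*KO mice below WT without overlap, where 9.7% of all genes did, and in AOM/DSS 0 did, where 6.24% did. In bulk tissue, less RNA per cell and fewer cells that make it cannot be told apart.

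*Oas3*, which makes the oligoadenylates that activate RNase L, had the largest interaction of the list at 4.57 (SE 0.91, edgeR adjusted p 0.409). *Oas3* stood at 37.6, 107 and 45.3 CPM in WT controls, at 26.6, 5.35 and 12.6 in WT AOM/DSS mice, at 1.3, 4.14 and 2.39 in *Cldn2*KO controls and at 10.9, 10.4 and 22.1 in *Cldn2*KO AOM/DSS mice. The WT controls were highest, the *Cldn2*KO controls lowest, and the AOM/DSS groups overlapped. *Oasl2*, a relative of the same family, stood at 120.0, 166 and 129.7 CPM in WT controls, at 98, 23.2 and 39.5 in WT AOM/DSS mice, at 13.3, 17.3 and 22.6 in *Cldn2*KO controls and at 44.9, 44.7 and 68.6 in *Cldn2*KO AOM/DSS mice, with an interaction of 2.94 (SE 0.62). Among the fits that left out 1 library, its interaction passed only without WT AOM/DSS replicate 1 (edgeR adjusted p 0.0373).

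*Isg15*, the ubiquitin-like modifier that UBA7 activates, stood at 34.1, 57.4 and 46.9 CPM in WT controls, at 29.3, 7.36 and 21.1 in WT AOM/DSS mice, at 4.54, 10.5 and 7.45 in *Cldn2*KO controls and at 13.9, 17.7 and 19.1 in *Cldn2*KO AOM/DSS mice. Its interaction was 2.43 (SE 0.62), with the same order of group means as *Oas3*, although WT AOM/DSS replicate 2 lay within the *Cldn2*KO control range. *Oas2* had an interaction of 3.28 (SE 0.89), *Zbp1*, a sensor of Z-form nucleic acids, 1.62 (SE 0.43), and *Parp14* 1.26 (SE 0.29). Of the members with the highest CPM, a level not corrected for gene length, *Ifit1bl1* stood at 1583, 540.1 and 1563 CPM in WT controls, at 661, 349 and 806 in WT AOM/DSS mice, at 337, 585 and 359 in *Cldn2*KO controls and at 419, 526 and 482 in *Cldn2*KO AOM/DSS mice, with an interaction of 1.17 (SE 0.58), and *Samd9l* and *Ifi27l2b* had 0.48 (SE 0.31) and 0.31 (SE 0.45).

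The interferon-inducible GTPases, which disrupt the vacuoles of intracellular microbes, had mostly positive interactions as well. Of 19 genes listed, 17 passed the filter on low counts, 16 had a positive interaction, and 6 had an unadjusted p under 0.05 (4.82% of all genes). DESeq2 called 2 (0.613% of all genes) and limma-voom 10 (0.97%). The median interaction was 1.30, from medians of -0.41 in WT and 0.77 in *Cldn2*KO. The summed level of the list was 678 to 1029 CPM in WT controls, 262 to 957 in WT AOM/DSS, 168 to 295 in *Cldn2*KO controls and 288 to 366 in *Cldn2*KO AOM/DSS. The WT AOM/DSS range took in most of the whole span, with replicate 2 lowest and replicate 3 highest. Without replicate 3 of that group the list median was 1.96, and without replicate 2 it was 0.99.

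*Ifi47*, one of the immunity-related GTPases, stood at 99.1, 123 and 114 CPM in WT controls, at 65, 23.6 and 83.9 in WT AOM/DSS mice, at 6.89, 3.85 and 10.5 in *Cldn2*KO controls and at 24.6, 21.4 and 21.3 in *Cldn2*KO AOM/DSS mice. In controls every WT library was well above every *Cldn2*KO library, and in AOM/DSS the lowest WT library came within the *Cldn2*KO range. Its interaction was 2.63 (SE 0.59, edgeR adjusted p 0.422). *Irgm1*, a regulator of the same family, stood at 129, 150.3 and 161 CPM in WT controls, at 135, 61.2 and 136 in WT AOM/DSS mice, at 48.8, 43.5 and 55.7 in *Cldn2*KO controls and at 64.2, 68.5 and 72.9 in *Cldn2*KO AOM/DSS mice, with an interaction of 0.88 (SE 0.35). *Irgm2* stood at 105, 77.5 and 104 CPM in WT controls, at 66.1, 26.2 and 81 in WT AOM/DSS mice, at 18.5, 19 and 23.1 in *Cldn2*KO controls and at 30.2, 34.6 and 38.6 in *Cldn2*KO AOM/DSS mice, with 1.49 (SE 0.45). *Gbp2*, a guanylate-binding protein gene, stood at 356, 72.1 and 261 CPM in WT controls, at 85.3, 56 and 216 in WT AOM/DSS mice, at 39.8, 44.9 and 115 in *Cldn2*KO controls and at 81.6, 109 and 105 in *Cldn2*KO AOM/DSS mice, and its interaction of 1.51 had an SE of 0.88. Reads of these paralogs can be split between copies, so single values are uncertain.

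Genes upstream of these targets had a smaller median. The 16 tested genes of interferon receptors, JAK kinases, STATs and IRFs had a median interaction of 0.29, with 12 positive and 5 at an unadjusted p under 0.05 (4.82% of all genes). The median was 0.52 without WT AOM/DSS replicate 3. The interferon-gamma receptor chains *Ifngr1* and *Ifngr2* had interactions of -0.19 (SE 0.27) and 0.18 (SE 0.28), whose signs turned under 1 alternative each. *Irf1*, a transcription factor induced by interferon-gamma, stood at 409, 373 and 373 CPM in WT controls, at 191, 185 and 215 in WT AOM/DSS mice, at 184, 202 and 221 in *Cldn2*KO controls and at 182, 161 and 159 in *Cldn2*KO AOM/DSS mice. It fell in WT (log2 -0.97, edgeR adjusted p 0.01), and its interaction was 0.69 (SE 0.17). *Stat2* had an interaction of 1.04 (SE 0.34). *Ifng*, *Ifnb1*, *Ifnl2* and *Ifnl3*, the ligands on the list, did not pass the filter on low counts.

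MHC class I presentation genes all leaned one way, with a positive interaction in 22 of 22 members and an unadjusted p under 0.05 in 15 (4.82% of all genes). The median was 0.95, from a median response of -0.92 in WT and 0.076 in *Cldn2*KO. In WT mice 11 of the 22 fell (3.15% of all genes did), and in *Cldn2*KO mice 0 passed, where 0.0243% of all genes did. DESeq2 called 4 interactions (0.613% of all genes) and limma-voom 14 (0.97%). The sum over the list was 7708 to 9166 CPM in WT controls and 2896 to 4712 CPM in WT AOM/DSS, and 3159 to 4312 and 2773 to 3332 CPM in the *Cldn2*KO groups, so the WT controls stood alone.

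*B2m*, the light chain shared by class I molecules, stood at 1513, 2560.3 and 1884 CPM in WT controls, at 844, 401 and 678 in WT AOM/DSS mice, at 406, 322 and 570.3 in *Cldn2*KO controls and at 396, 490.1 and 355 in *Cldn2*KO AOM/DSS mice. It fell in WT (log2 -1.63, edgeR adjusted p 0.0264), against -0.064 in *Cldn2*KO (edgeR adjusted p 0.931), and the interaction was 1.57 (SE 0.43, edgeR adjusted p 0.448). The heavy chain genes *H2-D1* and *H2-K1* fell in WT by 0.92 and 1.15 on the log2 scale (edgeR adjusted p 0.0317 and 0.0257), and their interactions were 0.89 (SE 0.27) and 0.48 (SE 0.30). *Tap1*, of the peptide transporter, had 1.97 (SE 0.55) and *Psmb9*, of the immunoproteasome, 1.64 (SE 0.46). *Nlrc5*, the activator of class I genes, stood at 51.1, 37.1 and 43.3 CPM in WT controls, at 14.4, 6.76 and 48.2 in WT AOM/DSS mice, at 1.2, 1.54 and 5.29 in *Cldn2*KO controls and at 7.08, 9.86 and 9.66 in *Cldn2*KO AOM/DSS mice. Its WT AOM/DSS libraries ran from below the *Cldn2*KO AOM/DSS range to the level of the WT controls, and the interaction was 2.65 (SE 0.95). Heavy chain genes are near-identical to one another in parts, so their single values are uncertain.

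MHC class II presentation genes differed by member. Of 14 tested, 9 had a positive interaction, 7 at an unadjusted p under 0.05 (4.82% of all genes), and the median was 1.63. Of the list, 6 members fell in WT (3.15% of all genes did) and 0 passed in *Cldn2*KO, where 0.0243% of all genes did. The *Cldn2*KO libraries lay below WT without overlap in 7 of the 14 genes in controls (9.7% of all genes) and in 10 in AOM/DSS (6.24% of all genes), with median differences of -2.46 and -0.96. *Cd74*, the invariant chain, stood at 1437, 1175 and 1474 CPM in WT controls, at 113, 70.6 and 133 in WT AOM/DSS mice, at 33.1, 11.5 and 123 in *Cldn2*KO controls and at 64.6, 44.6 and 42.5 in *Cldn2*KO AOM/DSS mice. It fell in WT (log2 -3.69, edgeR adjusted p 0.0261), against -0.15 in *Cldn2*KO (edgeR adjusted p 0.923), and was already lower in *Cldn2*KO controls (log2 -4.60, edgeR adjusted p 0.0214). Its interaction was 3.54 (SE 0.91).

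*H2-Ab1* and *H2-Aa*, the beta and alpha chains of I-A, followed the same order. *H2-Ab1* stood at 561, 560.5 and 668 CPM in WT controls, at 52.9, 36.6 and 54.3 in WT AOM/DSS mice, at 20.9, 11 and 73.2 in *Cldn2*KO controls and at 29.5, 28.7 and 21.3 in *Cldn2*KO AOM/DSS mice, with an interaction of 3.23 (SE 0.75). *H2-Aa* stood at 1347, 1479.8 and 1702 CPM in WT controls, at 226, 105 and 138 in WT AOM/DSS mice, at 47.1, 17.9 and 206 in *Cldn2*KO controls and at 83.5, 74.7 and 57.1 in *Cldn2*KO AOM/DSS mice, with 2.94 (SE 0.95). *Ciita*, the activator, stood at 31.9, 33.2 and 30.5 CPM in WT controls, at 5.38, 7.68 and 5.74 in WT AOM/DSS mice, at 0.94, 0.355 and 4.66 in *Cldn2*KO controls and at 2.14, 3.09 and 2.28 in *Cldn2*KO AOM/DSS mice, with 2.68 (SE 0.87). In each of these genes the WT controls were above every other library and *Cldn2*KO control replicate 3 was above the others of its group.

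That library weighed on the list. Without *Cldn2*KO control replicate 3 the list median was 3.54, and *H2-Ab1*, *H2-Eb1*, *H2-DMa*, *Ciita* and *Cd74* passed with edgeR adjusted p from 0.0059 to 0.0353. The same library held 30.0 CPM of the B cell gene *Ms4a1*, against 1.3 and 1.24 CPM in the other 2 of its group, and its part in the class II values was not tested. *Ctss*, a protease of macrophages and dendritic cells that trims the invariant chain, had an interaction of -0.31 (SE 0.30). Macrophage markers summed to 311 to 471 CPM in WT controls, 326 to 516 in WT AOM/DSS, 179 to 485 in *Cldn2*KO controls and 267 to 351 in *Cldn2*KO AOM/DSS, and 1 of 16 of them had an unadjusted p under 0.05 (4.82% of all genes). Their interactions were positive in 14, with a median of 0.52, and of 0.995 without *Cldn2*KO control replicate 3. Dendritic cell markers summed to at most 31.5 CPM in any library, with a median interaction of 0.27, and of 1.25 without the same library.

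**Figure D3:**
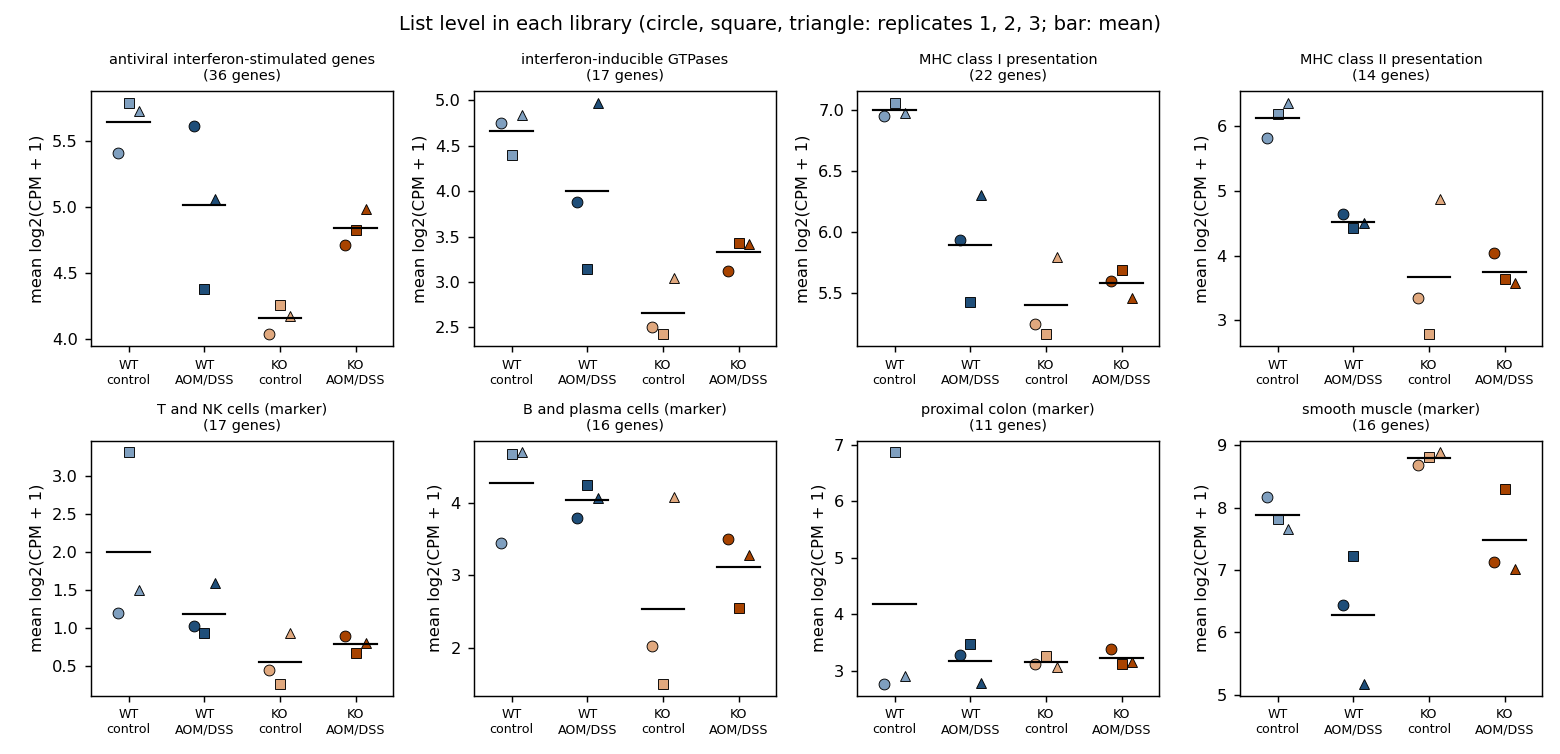
Mean log2(CPM + 1) over the genes of 8 lists in each library, with symbols for replicates 1 to 3 and a bar at the group mean. WT controls stand above the other groups for the MHC lists, *Cldn2*KO controls have the lowest mean for the antiviral and GTPase lists, and WT control replicate 2 stands out for T and NK cell and proximal colon markers.

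Some genes of plasma cells had positive interactions. *Jchain*, which joins IgA units into dimers, stood at 751, 711 and 861 CPM in WT controls, at 204, 448 and 274 in WT AOM/DSS mice, at 67, 12.1 and 89.6 in *Cldn2*KO controls and at 180.1, 158 and 345 in *Cldn2*KO AOM/DSS mice, with an interaction of 3.35 (SE 0.83). *Igha*, the heavy chain of IgA, stood at 959, 793 and 838 CPM in WT controls, at 143, 322 and 404 in WT AOM/DSS mice, at 59.1, 9.29 and 107 in *Cldn2*KO controls and at 174, 150.2 and 173 in *Cldn2*KO AOM/DSS mice, with 3.08 (SE 0.90). *Igkc* had 3.25 (SE 1.02) and *Tnfrsf17*, a receptor of plasma cells, 4.33 (SE 0.95). The WT controls were highest and the *Cldn2*KO controls lowest in *Jchain* and *Igha*. The B and plasma cell list as a whole had a median of -0.33, with 7 of 16 positive and 4 at an unadjusted p under 0.05 (4.82% of all genes). Leaving out *Cldn2*KO control replicate 3 took its median to 3.39, and it was -0.80 without *Cldn2*KO AOM/DSS replicate 1. The former setting keeps in that group only the libraries with the lowest level of the list. The *Cldn2*KO libraries lay below WT without overlap in 7 of its genes in controls (9.7% of all genes) and in 8 in AOM/DSS (6.24% of all genes). Its median genotype difference was -1.06 in controls and -1.27 in AOM/DSS, so over the list it was not smaller with treatment. The summed level was 2585 to 2701 CPM in WT controls, 736 to 1404 in WT AOM/DSS, 320.4 to 748 in *Cldn2*KO controls and 716 to 1015 in *Cldn2*KO AOM/DSS.

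T and NK cell markers had a positive interaction in 17 of the 17 tested of 20, with a median of 2.25 and 5 at an unadjusted p under 0.05 (4.82% of all genes). Their sum was 23.5 to 211 CPM in WT controls, where replicate 2 was the high value, and 16.6 to 40.4, 3.91 to 18.3 and 11.1 to 16.5 CPM in WT AOM/DSS, *Cldn2*KO controls and *Cldn2*KO AOM/DSS. Without WT control replicate 2 the median was 0.77, and without *Cldn2*KO control replicate 3 it was 3.45. *Prf1*, *Klrb1c* and *Ncr1* did not pass the filter on low counts, and the T cell receptor gene *Cd3e* stood at 0.534, 7.5 and 0.859 CPM in WT controls, at 0.307, 0.777 and 1.07 in WT AOM/DSS mice, at 0.261, 0.0592 and 0.114 in *Cldn2*KO controls and at 0.509, 0.137 and 0.367 in *Cldn2*KO AOM/DSS mice. The interferon-inducible chemokine *Ccl5* was also highest in WT control replicate 2, at 2.09, 29 and 3.27 CPM in WT controls, against 0.313, 0.178 and 0.341 in *Cldn2*KO controls. It had an interaction of 4.53 (SE 1.47). *Ccl8* and *Cxcl9* had 1.45 (SE 0.79) and 2.53 (SE 1.61). For the antiviral, GTPase and MHC class I lists the medians without that library were 1.15, 1.48 and 0.96. Without the 2 *Cldn2*KO AOM/DSS libraries that hold *Xist* they were 1.10, 1.02 and 1.09. How far lymphocyte transcripts moved the interferon and MHC lists was not tested.

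**Figure D4:**
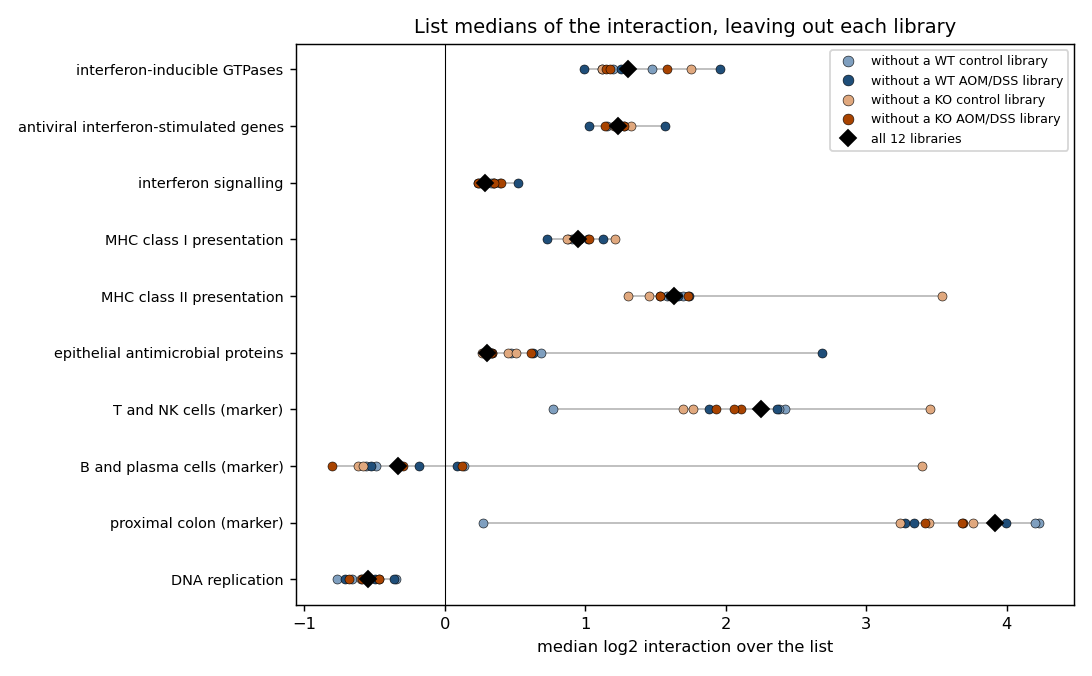
Median log2 interaction of 10 lists with all 12 libraries (diamonds) and without each library in turn (circles, coloured by the group left out). The GTPase, antiviral, interferon signalling and MHC class I lists keep within 0.23 to 1.96, while T and NK cell and proximal colon markers drop to 0.77 and 0.27 without WT control replicate 2, and MHC class II and B and plasma cell lists reach 3.54 and 3.39 without *Cldn2*KO control replicate 3.

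*Duoxa2*, *Duox2* and *Nos2*, singled out after their values were seen, were lowest in the *Cldn2*KO controls. *Duoxa2*, the maturation factor of the hydrogen peroxide-producing oxidase DUOX2, stood at 101, 86 and 94.2 CPM in WT controls, at 33.2, 38.8 and 123 in WT AOM/DSS mice, at 9.29, 15.3 and 13.3 in *Cldn2*KO controls and at 72.5, 41.2 and 73.9 in *Cldn2*KO AOM/DSS mice. Its interaction was 2.84 (SE 0.63, edgeR adjusted p 0.422). Among the fits that left out 1 library, it passed only without WT AOM/DSS replicate 3 (edgeR adjusted p 0.0137). *Duox2* stood at 461, 349.9 and 391 CPM in WT controls, at 165, 183 and 388 in WT AOM/DSS mice, at 83.4, 113 and 71.2 in *Cldn2*KO controls and at 248, 176 and 359 in *Cldn2*KO AOM/DSS mice, with 2.26 (SE 0.49). *Nos2*, the inducible nitric oxide synthase, stood at 68, 17.7 and 42.9 CPM in WT controls, at 19.6, 25 and 176 in WT AOM/DSS mice, at 0.887, 0.947 and 1.14 in *Cldn2*KO controls and at 22.3, 10.8 and 33.7 in *Cldn2*KO AOM/DSS mice, with 3.71 (SE 1.21) and a *Cldn2*KO response of 4.48 (edgeR adjusted p 0.118). All 3 *Cldn2*KO controls were below every other library in these genes, and WT AOM/DSS replicate 3 was the highest of its group.

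The antimicrobial list that holds them had 13 of 19 tested members positive and 5 at an unadjusted p under 0.05 (4.82% of all genes). In controls 8 of its genes were below WT in *Cldn2*KO without overlap (9.7% of all genes). Its median was 0.30, and 2.69 without WT AOM/DSS replicate 3. The members with the highest CPM were *Lypd8*, a protein that keeps flagellated bacteria from the mucosa, *Zg16*, a lectin of mucus, and *Saa1*, with interactions of 0.17 (SE 0.30), 0.30 (SE 0.78) and -0.11 (SE 0.61). *Retnlb* had the largest at 5.82 (SE 1.70) and was far higher in WT control replicate 2 than in the rest of its group, at 8.13, 221 and 18.9 CPM in WT controls.

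Of 20 tight junction genes tested, 14 had a positive interaction, 3 at an unadjusted p under 0.05 (4.82% of all genes), and the median was 0.12. It was 0.022 and 0.25 without WT control replicates 1 and 2. The scaffold gene *Tjp3* stood at 276, 289.8 and 260.3 CPM in WT controls, at 195, 207 and 203 in WT AOM/DSS mice, at 178, 197 and 199.9 in *Cldn2*KO controls and at 243, 213 and 249.6 in *Cldn2*KO AOM/DSS mice, with 0.75 (SE 0.16). It fell in WT (log2 -0.45, edgeR adjusted p 0.0453), as did *Cgn*, which encodes cingulin (log2 -0.69, edgeR adjusted p 0.0226), and *Cldn7* (log2 -0.74, edgeR adjusted p 0.035). The *Cldn2*KO responses of the same genes were 0.30, -0.083 and -0.019 and were not called. *Cldn3* had -0.021 (SE 0.35), whose sign turned under RLE scaling, and *Cdh1* had 0.12 (SE 0.28). *Vil1*, of the brush border, stood at 975, 1355 and 923 CPM in WT controls, at 468, 515 and 349 in WT AOM/DSS mice, at 665, 719 and 687 in *Cldn2*KO controls and at 660.4, 588 and 574 in *Cldn2*KO AOM/DSS mice and fell in WT (log2 -1.29, edgeR adjusted p 0.0146), with an interaction of 1.10 (SE 0.26).

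On the negative side, the 10 genes of smallest p were *Oat*, *Map4k5*, *Tmem248*, *Smc6*, *Btf3l4*, *Kbtbd7*, *Esf1*, *Lrif1*, *Ctsl* and *Hist1h4h*, with interactions from -2.17 to -0.61 and edgeR adjusted p from 0.400 to 0.432. edgeR called none of them, DESeq2 called all 10 (0.103% of all genes on the negative side), and limma-voom called 9 (0.243%), all but *Btf3l4*. These calls too come from the same libraries in which the genes were picked and are not independent support. *Oat*, ornithine aminotransferase, stood at 159, 171 and 169 CPM in WT controls, at 233, 167 and 188 in WT AOM/DSS mice, at 265, 267 and 254 in *Cldn2*KO controls and at 165, 164 and 140.5 in *Cldn2*KO AOM/DSS mice. *Ctsl*, the lysosomal protease cathepsin L, stood at 149, 132 and 133 CPM in WT controls, at 134, 166 and 155 in WT AOM/DSS mice, at 222, 224 and 227 in *Cldn2*KO controls and at 163, 149 and 134 in *Cldn2*KO AOM/DSS mice. *Tmem248* stood at 57, 50.6 and 57.5 CPM in WT controls, at 55.2, 55.6 and 57.4 in WT AOM/DSS mice, at 82.2, 86 and 81.9 in *Cldn2*KO controls and at 55.5, 54.7 and 56.4 in *Cldn2*KO AOM/DSS mice. In these 3 genes the *Cldn2*KO controls were above the other 9 libraries. *Hist1h4h* has near-identical family members and is uncertain.

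*Esf1*, a nucleolar protein of ribosomal RNA processing, was of another form. It stood at 23.9, 24.2 and 25.4 CPM in WT controls, at 44.2, 39.6 and 47.9 in WT AOM/DSS mice, at 35, 37.1 and 27.7 in *Cldn2*KO controls and at 35.5, 34.4 and 33.8 in *Cldn2*KO AOM/DSS mice and rose in WT (log2 0.84, edgeR adjusted p 0.0166), against 0.055 in *Cldn2*KO (edgeR adjusted p 0.859). *Smc6*, of a chromosome repair complex, and *Btf3l4* also rose in WT (log2 0.52 and 0.73, edgeR adjusted p 0.041 and 0.0221). In all 10 genes the *Cldn2*KO controls were above the WT controls without overlap, as in 13.2% of all genes, and in AOM/DSS the *Cldn2*KO mice were below WT in 5 (6.24% of all genes) and overlapped in 5. No gene of the 10 had *Cldn2*KO mice above WT in AOM/DSS, as 5.07% of all genes did.

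DNA replication genes leaned the same way, with a positive interaction in 5 of 36 and 8 negative ones at an unadjusted p under 0.05 (4.69% of all genes). The median was -0.54, from 0.65 in WT and 0.056 in *Cldn2*KO. *Pcna*, the sliding clamp, stood at 96.8, 80.3 and 109 CPM in WT controls, at 142, 117 and 205 in WT AOM/DSS mice, at 103, 119 and 123 in *Cldn2*KO controls and at 129.8, 87 and 107 in *Cldn2*KO AOM/DSS mice, with -0.78 (SE 0.30). *Mcm4* and *Mcm6*, of the replicative helicase, had -0.76 (SE 0.28) and -0.76 (SE 0.39), *Orc6*, of the origin recognition complex, -1.09 (SE 0.33), and *Rrm1*, of ribonucleotide reductase, -0.54 (SE 0.39). Without WT control replicate 2 and WT AOM/DSS replicate 3 the median was -0.12. Of the mitotic genes 26 of 30 were positive, with a median of 0.48 and 0 at an unadjusted p under 0.05. Their median was 0.092 without WT control replicate 1 and 0.76 without replicate 2, and that of the replication genes was -0.34 without replicate 2. *Mki67*, *Top2a* and *Ccna2* had 0.42 (SE 0.42), 0.29 (SE 0.50) and 0.50 (SE 0.36).

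Among genes that the study discusses, 23 of 24 were tested and edgeR called 0 interactions. DESeq2 and limma-voom each called 1, that of *Vil1*, which was higher (0.613% and 0.97% of all genes). Of the 23 interactions 15 were positive, where 49.6% of all genes were, with a median of 0.20. The median was 0.053 without WT control replicate 1 and 0.41 without *Cldn2*KO control replicate 1. Some of them were taken up in the study from RNA-seq of the series, so their directions are not independent evidence. *Nifk*, a nucleolar partner of the proliferation antigen Ki-67, stood at 32.6, 32.4 and 42.7 CPM in WT controls, at 74.2, 58.3 and 76.1 in WT AOM/DSS mice, at 47.3, 54.9 and 50.3 in *Cldn2*KO controls and at 67, 52.9 and 46.2 in *Cldn2*KO AOM/DSS mice. It rose in WT (log2 0.95, edgeR adjusted p 0.0243), against 0.12 in *Cldn2*KO (edgeR adjusted p 0.75), and had an interaction of -0.83 (SE 0.24). *Cdkn1a*, the cell cycle inhibitor p21, stood at 319, 269 and 283 CPM in WT controls, at 112, 136 and 143 in WT AOM/DSS mice, at 228, 244 and 217 in *Cldn2*KO controls and at 244, 130.4 and 159.9 in *Cldn2*KO AOM/DSS mice. It fell in WT (log2 -1.16, edgeR adjusted p 0.0235), against -0.37 in *Cldn2*KO, with an interaction of 0.79 (SE 0.29). *Myc* rose in WT (log2 1.59, edgeR adjusted p 0.0163) and had an interaction of -0.27 (SE 0.34).

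Interactions of cytokine genes had large errors. *Tnf*, *Il1a* and *Il1b* had interactions of 1.93 (SE 1.15), -1.60 (SE 1.75) and -0.46 (SE 1.53), and *Il6* did not pass the filter on low counts. *Il1b* stood at 2.5, 3.17 and 3.9 CPM in WT controls, at 3.12, 5.58 and 80.2 in WT AOM/DSS mice, at 0.47, 0.237 and 1.48 in *Cldn2*KO controls and at 6.62, 2.78 and 5.55 in *Cldn2*KO AOM/DSS mice. The *Cldn2*KO controls were below the other 9 libraries, and WT AOM/DSS replicate 3 was far above the rest. The transcription factors *Stat3* and *Nfkb1* had 0.19 (SE 0.21) and 0.43 (SE 0.29). For survival and growth genes the interactions were -0.21 in *Bcl2* (SE 0.28), 0.67 in *Birc5* (SE 0.47), 1.16 in *Ly6a* (SE 0.84), -0.77 in *Egf* (SE 0.48), -1.43 in *Ereg* (SE 0.85), and 0.42 in *Egfr* (SE 0.29). Those of *Cdkn1b*, *Chek2* and *H2afx* were 0.36 (SE 0.19), 0.20 (SE 0.29) and 0.61 (SE 0.41).

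For cell death and inflammation genes the median interaction was 0.17 over 26 apoptosis genes, with 4 at an unadjusted p under 0.05 on the positive side (4.82% of all genes). It was 0.19 over 17 genes of necroptosis and pyroptosis, with 4, and 0.018 over 31 TNF and NF-kB genes, with 2 higher and 1 lower. Single libraries moved these medians, the TNF and NF-kB one to 0.59 without WT AOM/DSS replicate 3 and to -0.15 without *Cldn2*KO AOM/DSS replicate 1. Leaving out WT control replicate 2 took the apoptosis median to 0.037, and it was 0.30 without WT AOM/DSS replicate 3. The necroptosis and pyroptosis median was 0.32 without WT AOM/DSS replicate 1. *Ripk3*, the kinase that activates MLKL, had 1.07 (SE 0.47). *Nlrp6*, an epithelial inflammasome sensor, fell in WT (log2 -1.96, edgeR adjusted p 0.0264) and had an interaction of 1.17 (SE 0.52).

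Growth and repair lists had medians of 0.00046 for the EGF family, -0.25 for Wnt targets and crypt stem cells, -0.35 for fetal-like repair epithelium and -0.15 for matrix genes. *Plet1*, a marker of repairing colonic epithelium, stood at 86.5, 142 and 54.8 CPM in WT controls, at 11.3, 17.4 and 161 in WT AOM/DSS mice, at 1.15, 1.01 and 0.512 in *Cldn2*KO controls and at 25.3, 8.93 and 38.7 in *Cldn2*KO AOM/DSS mice, with 5.33 (SE 1.39). The Wnt list went to -0.63 without WT AOM/DSS replicate 1. It turned to 0.56 and the fetal-like list to 0.15 without WT AOM/DSS replicate 3. The matrix list went to 0.043 without that library and to -0.52 without *Cldn2*KO AOM/DSS replicate 2, and the EGF list ran from -0.31 to 0.27 without WT AOM/DSS replicates 2 and 3.

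Markers of tissue makeup are given as a measure of what the libraries held. The median interaction was 0.25 for goblet cells, 0.48 for surface colonocytes, 0.26 for tuft and enteroendocrine cells, 0.21 for smooth muscle, 0.90 for enteric neurons and glia, 0.27 for fibroblasts and endothelium, -0.23 for neutrophils, 0.10 for fat, mesothelium and pancreas, -0.33 for posterior *Hox* genes and 3.92 for proximal colon. Without WT control replicate 2 the colonocyte median was -0.64 and the proximal colon median 0.27. The posterior *Hox* median was 0.021 and the fat, mesothelium and pancreas median -0.57 without that library. Other medians also moved with 1 library. Without WT AOM/DSS replicate 3 that of neutrophils was 1.96 and that of goblet cells -0.081, and without WT control replicate 3 that of neutrophils was -1.57. Without *Cldn2*KO AOM/DSS replicate 2 those of smooth muscle, fibroblasts and endothelium, and neurons and glia were -0.34, -0.13 and 0.44. Without WT AOM/DSS replicate 2 that of smooth muscle was 0.78 and that of fat, mesothelium and pancreas 2.47, and without WT AOM/DSS replicate 1 that of tuft and enteroendocrine cells was 0.68. In controls 15 of 16 smooth muscle markers were above WT in *Cldn2*KO without overlap (13.2% of all genes), with sums of 11108 to 14442 CPM against 5512 to 8103 CPM. The sums were 3470.2 to 8542 CPM against 909.7 to 4239.7 CPM in AOM/DSS. The part of tissue makeup in the lists above was not tested.

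**Figure D5:**
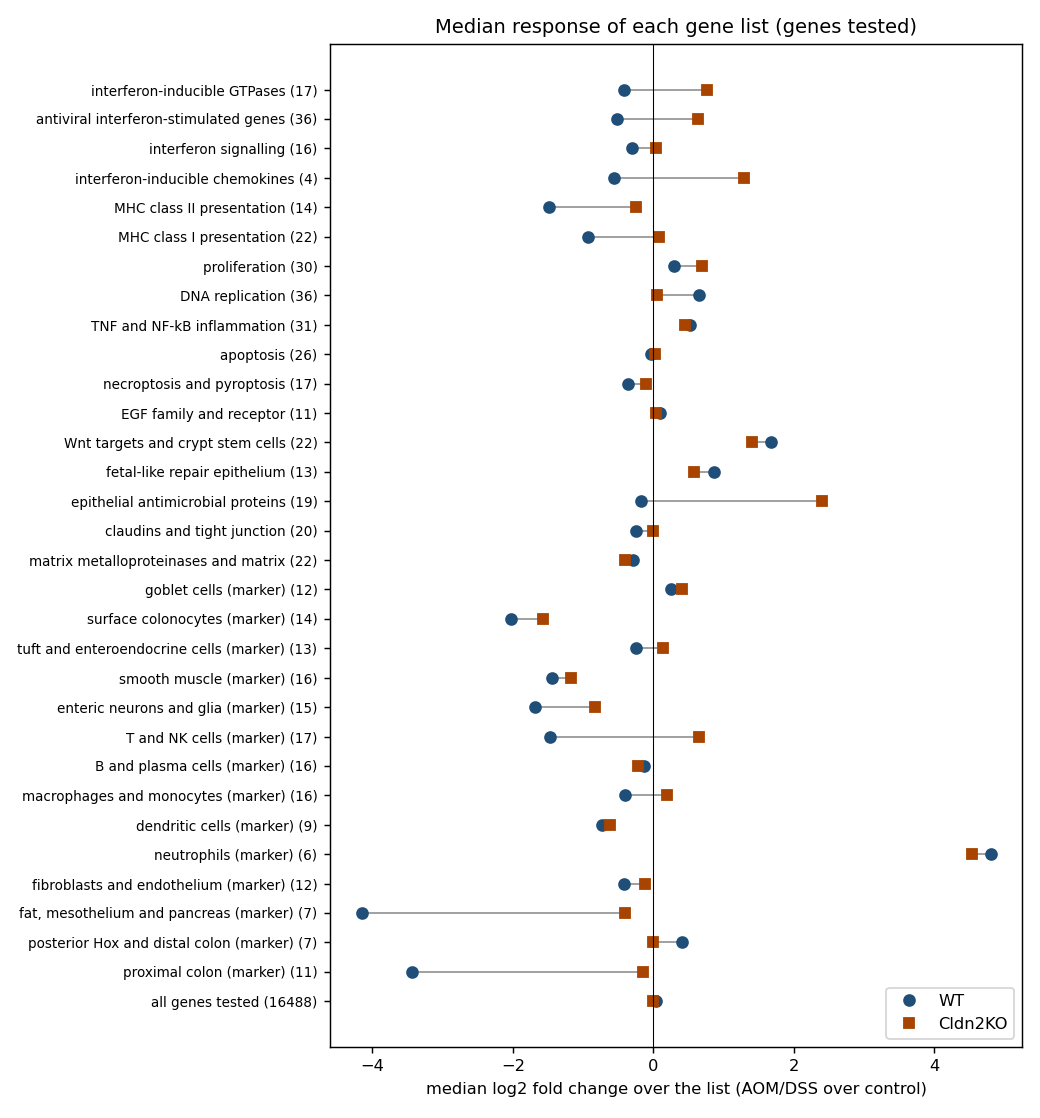
Median log2 response to AOM/DSS over the tested genes of each list in WT (circles) and *Cldn2*KO (squares), with the number of genes in brackets. The antiviral and GTPase lists lie on opposite sides of 0 in the genotypes, the MHC lists are lower in WT, and the medians of the proximal colon and the fat, mesothelium and pancreas markers are lower in WT and among the farthest apart.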

How the data were processed

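Colon RNA from WT and *Cldn2*KO mice was sequenced on an Illumina NovaSeq instrument. The authors deposited a table of raw, unscaled read counts, with 36 columns that hold 18 libraries run on 2 lanes. The submitters' processing notes name HISAT2, featureCounts (Subread) and GRCm38, while the study's methods name TopHat2. Versions, strandedness and the treatment of multiply aligned reads were not given in the sources used here, so overlapping, antisense and near-identical genes are uncertain.

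Lanes of a library, with a chi-square of at most 1.12 per degree of freedom over genes in the 12 libraries used, were summed. Replicates differed far more (at least 11.0). The table held 47729 genes, of which 47224 were matched to GENCODE symbols. The unmatched 505 held at most 0.0735% of a library's reads. Groups came from the genotype and treatment labels.

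The 12 libraries were fitted with edgeR 4.0.16 (R 4.3.3, quasi-likelihood, robust, TMM scaling, 1 mean per group) after filterByExpr, which kept 16488 genes. A gene was called where its p, adjusted by Benjamini-Hochberg over all genes tested, was under 0.05, whatever its fold change. The biological coefficient of variation was 0.323. SE is the log2 value divided by the square root of the F statistic. The study gives 3 mice per group for its AOM/DSS RNA-seq, and the labels do not name the animals, so p-values measure the spread between these libraries. DESeq2 1.42.0, limma 3.58.1 (voom with sample weights), other scalings and filters, covariates for *Xist* and *Hoxb13* over 18 libraries, a replicate block and each library left out were run as alternatives. The scripts were tested on simulated counts. Control replicates with the same number correlated at 0.158, -0.024 and 0.0745 in their deviations from the group means and were not treated as pairs.

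The comparison and the 33 gene lists were chosen with earlier results of these data known, so no p over a list is given. Named were *Cldn2*, the 10 genes on each side with the smallest p (mean of at least 1 CPM, common symbol, no receptor segment, since edgeR called none), the list members with the highest CPM, and the genes the study discusses, some of which are not reported here. Other genes named were singled out after their values were seen. Promoters came from a RefSeq table and were searched for each pattern on both strands.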

Additional observations from a re-analysis of the deposited data

How the results depend on the processing

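The count of called interactions was 0 in the main analysis and under RLE or upper-quartile scaling, with a minimum of 1 CPM in 3 libraries, without robust estimation and with the replicate block. It was 2 with no filter, with all 18 libraries in the fit, with a *Xist* covariate and at an adjusted p under 0.1, all of them higher, and 5 with a *Hoxb13* covariate, also all higher. The *Hoxb13* covariate varied within a group only among WT controls, where it set replicate 2 apart. In effect it took that library out of the WT control mean. DESeq2 gave 118 (101 higher and 17 lower) and limma-voom with sample weights 200 (160 higher and 40 lower). Leaving out WT control replicate 2 and WT AOM/DSS replicate 3 together, chosen after seeing the data, gave 63 (40 higher and 23 lower), and leaving out the 2 *Cldn2*KO AOM/DSS libraries with *Xist* gave 0. Leaving out each library in turn gave 0 to 6 calls (0 to 5 higher and 0 to 5 lower), and 5 of these settings gave any. The 6 calls came without *Cldn2*KO AOM/DSS replicate 1, which leaves the 2 libraries that hold *Xist* in that group, and were *Xist*, higher, and *Ddx3y*, *Eif2s3y*, *Uty*, *Kdm5d* and *Gm29650*, lower. The cause was not tested.

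The *Cldn2*KO response (4 calls) held 21 with no filter, 33 with 18 libraries, 176 with the *Hoxb13* covariate, 1272 without the pair of WT libraries, 0 without the *Xist* libraries, 2468 with limma-voom, 733 with DESeq2 and 64 at 0.1, and 0 to 204 without each library. The WT response (869 calls) held 1761, 320, 434, 87, 2074, 3030 and 3183 under the same settings other than no filter, and 47 to 1005 without each library. The genotype difference in controls (111 calls) held 199, 193, 571, 26, 2291, 681 and 253, and 2 to 219 without each library. In AOM/DSS (1 call) DESeq2 gave 7, leaving out the *Xist* libraries 0, and leaving out each library 1 to 8. With a replicate block in the controls the interaction held 0 calls, the *Cldn2*KO response 0, the WT response 8 and the difference in controls 39. In that fit every AOM/DSS library was set to the block of control replicate 1. Its 2 responses are therefore against controls at the level of replicate 1 and not against the control mean, so their counts are not comparable with the main ones.

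Of 2650 interaction values for 106 named genes under the alternatives, 2476 kept their direction and stayed uncalled, 137 passed the threshold and 37 changed sign, all in genes whose interaction was not called. The interaction of 94 genes kept its sign throughout. Leaving out each library gave ranges that crossed 0, of -0.37 to 0.0115 in *Bcl2*, -0.55 to 0.54 in *Cldn2*, -0.42 to 0.15 in *Cldn3*, -0.35 to 0.0296 in *Ifngr1*, -0.000976 to 0.32 in *Ifngr2*, -2.38 to 1.72 in *Il1a*, -0.95 to 2.31 in *Il1b*, -0.45 to 0.33 in *Saa1*, -0.0202 to 0.59 in *Top2a* and -0.17 to 0.68 in *Zg16*. Without the pair of WT libraries the value was 0.0699 in *Bcl2*, 1.04 in *Il1a*, 2.31 in *Il1b*, 0.0328 in *Myc* and 0.42 in *Saa1*. With limma-voom the value was 0.0759 in *Bcl2*, 0.62 in *Il1a*, 2.38 in *Il1b*, 0.00517 in *Rrm1* and 0.34 in *Saa1*. With RLE scaling the value was 0.0362 in *Cldn3*. With no filter the value was 0.0363 in *Cldn3*. With 18 libraries the value was 0.00988 in *Cldn3*. Without the libraries that hold *Xist* the value was 0.22 in *Cldn3* and 0.0562 in *Saa1*. With DESeq2 the value was 0.0361 in *Cldn3*. With the *Xist* covariate the value was 0.43 in *Saa1*. With the *Hoxb13* covariate the value was 0.36 in *Saa1*.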

Other observations

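Some genes outside the lists passed without WT libraries that stood apart. The pair left out was WT control replicate 2, which lacks *Hoxb13*, and WT AOM/DSS replicate 3, which lay farthest out on the first principal component. This setting and the genes named from it were chosen after the data had been seen, and it leaves 2 libraries in each WT group. Of the 63 genes called, 40 were higher and 23 lower. Among the higher ones were *Tnfsf10*, which encodes the death ligand TRAIL, *Ido1*, an interferon-inducible enzyme that degrades tryptophan, *Cd274*, which encodes PD-L1, *Cd177* and *Tnfrsf8*, which encodes CD30.

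*Tnfsf10* stood at 71.5, 82.7 and 61.9 CPM in WT controls, at 35.9, 32 and 75.3 in WT AOM/DSS mice, at 10.8, 10.1 and 9.38 in *Cldn2*KO controls and at 17.9, 23 and 22 in *Cldn2*KO AOM/DSS mice, with an interaction of 1.65 (SE 0.40, edgeR adjusted p 0.436) in 12 libraries and 2.03 (edgeR adjusted p 0.0049) in 10. It also passed without WT AOM/DSS replicate 3 alone (edgeR adjusted p 0.0137). *Ido1* stood at 48.7, 21.2 and 49.6 CPM in WT controls, at 7.83, 14.9 and 32.7 in WT AOM/DSS mice, at 2.19, 2.37 and 6.03 in *Cldn2*KO controls and at 12.8, 9.17 and 12.5 in *Cldn2*KO AOM/DSS mice, and its interaction went from 2.81 to 3.81 (edgeR adjusted p 0.035 in 10 libraries). *Cd274* stood at 37.7, 27.3 and 37.4 CPM in WT controls, at 11.3, 7.31 and 31.5 in WT AOM/DSS mice, at 8.46, 8.7 and 9.1 in *Cldn2*KO controls and at 7.03, 11.5 and 9.73 in *Cldn2*KO AOM/DSS mice, with 1.14 in 12 libraries and 2.13 in 10 (edgeR adjusted p 0.0222). WT AOM/DSS replicate 3 was the highest of its group in each of these.

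*Cd177* stood at 358, 18.8 and 291 CPM in WT controls, at 245, 253 and 329.8 in WT AOM/DSS mice, at 46.1, 30.5 and 51 in *Cldn2*KO controls and at 290.0, 216 and 393 in *Cldn2*KO AOM/DSS mice. Its interaction was 2.51 in 12 libraries (SE 1.01) and 3.20 in 10 (edgeR adjusted p 0.00809). *Tnfrsf8* stood at 19.6, 0.27 and 19.1 CPM in WT controls, at 19.9, 28.1 and 25.6 in WT AOM/DSS mice, at 0.94, 0.829 and 0.967 in *Cldn2*KO controls and at 19, 9.72 and 18.1 in *Cldn2*KO AOM/DSS mice. Its interaction was 3.17 in 12 libraries (SE 1.26) and 3.77 in 10 (edgeR adjusted p 0.0049). Both also passed without WT control replicate 2 alone (edgeR adjusted p 0.0195 for *Cd177* and 0.00822 for *Tnfrsf8*). In both, WT control replicate 2 was far below the other WT controls, and the *Cldn2*KO controls were below all AOM/DSS libraries.

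Among the lower ones were *Fxyd4* and *Slc4a4*. *Fxyd4*, a regulator of the sodium pump, stood at 32, 0.0675 and 26.2 CPM in WT controls, at 17.9, 30.8 and 29.3 in WT AOM/DSS mice, at 113, 177 and 144 in *Cldn2*KO controls and at 25.5, 26.5 and 26.7 in *Cldn2*KO AOM/DSS mice. Its interaction was -2.88 in 12 libraries (SE 1.28) and -2.20 in 10 (edgeR adjusted p 0.0222). *Slc4a4*, a sodium bicarbonate cotransporter, stood at 93.7, 148 and 94.5 CPM in WT controls, at 117, 75.4 and 31.3 in WT AOM/DSS mice, at 198, 197 and 177 in *Cldn2*KO controls and at 56.7, 62.6 and 54.9 in *Cldn2*KO AOM/DSS mice. Its interaction was -1.13 in 12 libraries (SE 0.51) and -1.75 in 10 (edgeR adjusted p 0.0122). The *Cldn2*KO controls were above every other library in both.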
